A study of Mus musculus with 38 samples.

Results

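The genes described here set the activity of the pyruvate dehydrogenase complex in mouse liver: the kinase genes Pdk1, Pdk2, Pdk3 and Pdk4, the phosphatase genes Pdp1 and Pdp2, and Pdha1 and Pdhb, which encode the alpha and beta subunits of the E1 component that the kinases and phosphatases act on. The 8 genes were chosen by symbol, as a set defined by function, with earlier results of these data known. All 8 were measured among 22485 named genes on a whole-genome Agilent array. Each gene was read from its probe with the highest mean.

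The complex turns pyruvate into acetyl-CoA in the mitochondrial matrix and so commits carbon from carbohydrate to oxidation or to fatty acid synthesis. Phosphorylation of the E1 alpha subunit by a pyruvate dehydrogenase kinase stops this flux, and removal of the phosphate by a pyruvate dehydrogenase phosphatase restores it. Pdk2 and Pdk4 are the main liver kinases, and Pdk4 is known for its rise in fasting and diabetes. FoxO1, a transcription factor that insulin signalling keeps out of the nucleus, is a known activator of Pdk4, as are PPARalpha and glucocorticoid signalling.

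LIRFKO mice lacked both the insulin receptor (IR) and FoxO1 in liver, LIRKO mice lacked the insulin receptor there, and the controls carried the floxed alleles of IR and FoxO1 (IR/FoxO1 floxed) or of IR alone (IR floxed). The deletions were made by albumin-Cre, which is active in hepatocytes, and whether other liver cells kept the genes was not measured. All were male, 11 to 12 weeks old, of mixed FVB/N-C57Bl/6 strain, and all had been fasted, overnight by one label and for 24 h by another. Livers were taken from fasted mice, 6 h after refeeding, or 60 min after glucose. The 37 livers formed 11 groups. Refed, glucose-treated and fasted groups held 4, 3 and 3 LIRFKO mice, 4, 3 and 3 LIRKO mice, and 4, 3 and 4 IR floxed mice, while IR/FoxO1 floxed mice were 3 refed and 3 fasted, with no glucose group. LIRFKO against LIRKO therefore compares FoxO1 loss together with any difference between the lines. The glucose-treated mice carried a later block of mouse numbers than all fasted and refed mice, so an effect of glucose and of any cohort these numbers stand for cannot be told apart. Each liver came from 1 mouse, so p-values measure the spread between mice.

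Values were log2 intensities that the authors had normalized, with column medians of 5.72 to 5.78, and the number of arrays limits their precision. Foxo1 lay between 6.07 and 7.12 in LIRFKO livers and between 9.14 and 10.91 in the others, with 1 exception. The library labelled as fasted IR/FoxO1 floxed, IRF.fl_Fast_523, had Foxo1 at 6.77 and Insr at 6.90, against 10.17 to 10.57 and 8.14 to 8.27 in the other libraries of its group. It was kept in that group, and results of that group are given with and without it where they differ in a call or by over 1.5 times. Insr lay between 5.96 and 7.81 in knockout livers, against 7.36 to 9.05 in floxed livers other than IRF.fl_Fast_523. The 6 hepatocyte markers averaged 14.2 to 15.6 in every library. Refed LIRKO livers had hepatocyte means of 14.2 to 15.16, against 15.19 to 15.41 in refed IR floxed livers. After glucose the means were 14.495 to 15.17 in LIRKO, 15.26 to 15.52 in IR floxed and 15.18 to 15.24 in LIRFKO livers. Their part in the results below was not tested. The 5 skeletal muscle markers, a tissue rich in Pdk4, stayed between 5.39 and 5.63 in each library. Of the 4 adipocyte markers, Adipoq, Plin1 and Lep stayed between 5.27 and 5.71 in every liver, and the 1 that varied was Cidec, a lipid droplet protein. Exocrine pancreas markers reached 10.5 in a LIRFKO refed library, 9.58 in an IR floxed glucose library and 8.11 in an IR floxed fasted library, and stayed at or below 6.70 in all others.

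RefSeq start regions (250 bases before to 50 after the start) on GRCm38.p6 were used for 7 of the 8 genes, all but Pdp1. Those of Pdk4 (chr6:5496229-5496528, minus strand), Pdp2 (chr8:104591222-104591521, plus strand) and the upstream start of Pdk2 (chr11:95041322-95041621, minus strand) are shown because these genes changed below. Capitals mark CCAAT boxes (CCAAT, or ATTGG on the opposite strand) and E-boxes (CACGTG).
Pdk4: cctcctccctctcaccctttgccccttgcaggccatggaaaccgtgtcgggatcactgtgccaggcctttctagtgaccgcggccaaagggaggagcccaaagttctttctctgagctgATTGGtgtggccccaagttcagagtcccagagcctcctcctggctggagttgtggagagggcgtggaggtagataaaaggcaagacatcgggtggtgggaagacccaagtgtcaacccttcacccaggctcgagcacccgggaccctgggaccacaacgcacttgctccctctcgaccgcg
Pdp2: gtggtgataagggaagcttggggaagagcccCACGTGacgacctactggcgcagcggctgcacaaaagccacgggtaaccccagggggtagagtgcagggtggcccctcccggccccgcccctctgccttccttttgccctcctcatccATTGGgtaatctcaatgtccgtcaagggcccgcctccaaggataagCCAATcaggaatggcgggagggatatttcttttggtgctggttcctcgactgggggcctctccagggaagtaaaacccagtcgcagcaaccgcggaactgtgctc
Pdk2: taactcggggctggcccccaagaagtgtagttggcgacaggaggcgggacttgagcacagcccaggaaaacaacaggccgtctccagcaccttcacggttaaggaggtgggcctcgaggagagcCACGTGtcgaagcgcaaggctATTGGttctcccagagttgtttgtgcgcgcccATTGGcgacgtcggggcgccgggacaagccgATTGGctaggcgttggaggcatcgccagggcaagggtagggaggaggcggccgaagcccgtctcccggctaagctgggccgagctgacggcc
A CCAAT box, the site of NF-Y, stood in 5 of the 9 start regions of the genes, against 37.4% of 32851 mouse start regions. The E-box CACGTG was in 2 of the 9, those of Pdk2 and Pdp2, against 7.2% of all. The FoxO core GTAAACA, present in 3.6% of all start regions, the related CAAAACA, present in 6.3%, and the nuclear receptor motif AGGTCA, present in 16.3%, were in none of the 9, with both strands searched. TGTTCT, a glucocorticoid receptor motif present in 19.0% of all, stood in 1 of them, at a start of Pdk1. These are matches of letters within 300 bases and say nothing of sites elsewhere.

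Pdk4 varied far more than any other gene of the set. Its gene lies at chr6:5483351-5496278 on GRCm38.p6, and 1 probe reported it. Group means ran in the order LIRKO fasted, 11.06 ± 0.40 (SD, n = 3), LIRKO glucose, 9.49 ± 0.12 (n = 3), LIRFKO fasted, 8.27 ± 0.33 (n = 3), LIRKO refed, 7.67 ± 0.37 (n = 4), LIRFKO glucose, 7.501 ± 0.26 (n = 3), and IR floxed glucose, 7.48 ± 0.38 (n = 3). Below these came IR/FoxO1 floxed fasted at 7.29 ± 0.68 (n = 3), IR floxed fasted at 7.24 ± 0.57 (n = 4), IR/FoxO1 floxed refed at 7.04 ± 0.82 (n = 3), LIRFKO refed at 6.75 ± 0.41 (n = 4) and IR floxed refed at 6.49 ± 0.45 (n = 4). The first and second groups each stood clear of the next, and from the third downward every group overlapped its neighbour. Of the variance of Pdk4 over the 37 livers, 90.8% lay between groups, against a median of 37.9% over all genes. Its group means spanned 4.57, and only 20 of the 22485 genes spanned more.

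**Figure D1:**
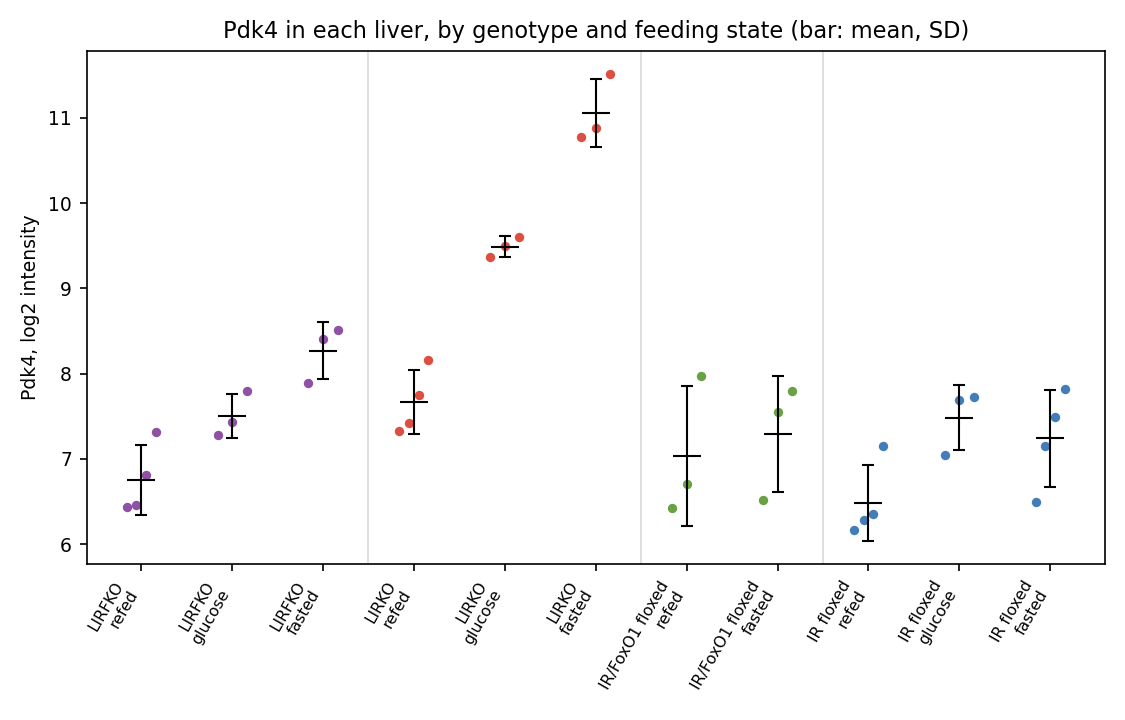
Pdk4 log2 intensity (y axis) in every liver, by genotype and feeding state (x axis); each point is a mouse and the bars give the mean and SD. The fasted LIRKO livers, between 10.77 and 11.51, lie above all other livers, and the glucose-treated LIRKO livers, between 9.37 and 9.60, lie above all the rest.

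In fasted livers, loss of the insulin receptor went with a large rise of Pdk4. The fasted LIRKO livers read 10.77, 10.88 and 11.51, against 7.49, 6.49, 7.82 and 7.15 in fasted IR floxed livers. The lowest LIRKO liver was far above the highest floxed one. The fitted change, which also takes in dye and array, was 3.78 ± 0.33 (SE), a 13.7-fold difference (adjusted p = 4.82e-08). Pdk4 was the only one of the 8 genes to pass in fasted livers, where 8.06% of all genes passed in either direction. On slides that held both groups the difference was 5.02 and 3.28. Cidec moved the same way (2.04 ± 0.56, adjusted p = 0.0218), so that the mean of the 4 adipocyte markers was 7.03 to 7.37 in fasted LIRKO livers, against 6.58 to 6.97 in fasted IR floxed livers. The macrophage marker mean was 9.03 to 9.50 in fasted LIRKO livers, against 8.73 to 9.04 in fasted IR floxed livers. The hepatocyte marker mean was 15.08 to 15.39 in fasted LIRKO livers, against 15.36 to 15.59. Both pairs of ranges overlapped slightly. The part of Cidec and of these markers in the Pdk4 result was not tested.

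Pdk4 was also higher in LIRKO livers after refeeding and after glucose. Refed LIRKO livers read 8.15, 7.42, 7.75 and 7.33, against 6.29, 6.16, 6.35 and 7.15 in refed IR floxed livers, without overlap. The change was 1.43 ± 0.30 or 2.69-fold (adjusted p = 0.00167), and 1.83, 0.61 and 1.17 within the 3 slides that held both groups. In refed livers the adipocyte marker mean was 6.94 to 7.08 in LIRKO, against 5.99 to 6.59 in IR floxed, again through Cidec (3.09 ± 0.51, adjusted p = 0.000123), and the macrophage markers given with Pdp1 were higher as well. The hepatocyte marker mean given above was lower in the refed LIRKO livers. The part of these markers was not tested. Among refed livers 2 of the 8 genes passed, Pdk4 and Pdp1, with 11.6% of all genes called. Glucose-treated LIRKO livers read 9.60, 9.50 and 9.37, against 7.04, 7.72 and 7.68 in glucose-treated IR floxed livers. These groups were also apart, with a change of 2.03 ± 0.35 or 4.08-fold (adjusted p = 0.000475), and 1.92 and 2.46 within slides. It was the only call of the 8, beside 8.3% of all genes, and was lost when only the 2 groups entered the fit (1.89, adjusted p = 0.112). After glucose the macrophage marker mean was 8.97 to 9.63 in LIRKO, against 8.255 to 8.59 in IR floxed livers. The hepatocyte mean given above was lower in LIRKO there too, and neither part was tested.

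In livers that lacked FoxO1 as well, this elevation of Pdk4 was much smaller. The fasted LIRFKO livers read 8.40, 8.52 and 7.89, below all 3 fasted LIRKO livers. The change against LIRKO was -2.83 ± 0.35, 7.12-fold lower (adjusted p = 6.95e-06), and -3.11 on the slide that held both. Cidec was lower there too (-1.99 ± 0.60, adjusted p = 0.041), with an adipocyte marker mean of 6.62 to 6.88 in the LIRFKO livers. After glucose LIRFKO livers read 7.43, 7.28 and 7.79, again below every LIRKO liver of that state, with a change of -1.94 ± 0.35 or 3.84-fold lower (adjusted p = 0.000776), and -1.93 on the slide that held both. In each of these comparisons Pdk4 was the 1 gene of the 8 called, while 6.52% of all genes passed in fasted livers and 7.57% after glucose. Refed LIRFKO livers read 6.81, 6.45, 6.43 and 7.32, below all 4 refed LIRKO livers, yet the change of -0.89 ± 0.30 did not pass (adjusted p = 0.0697). Within slides it was -0.84, -0.70 and -0.99. With only genes above the median level in the test it passed (-0.89, adjusted p = 0.041).

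Against their own floxed line, LIRFKO livers showed no called difference in any of the 8 genes, where limma called 0.00445% of all genes in fasted and 0.378% in refed livers. At an unadjusted p under 0.05 there were 0 of the 8 fasted and 2 refed, Pdk2 and Pdhb, beside 3.64% and 10.4% of all genes. Fasted IR/FoxO1 floxed livers read 7.8, 7.55 for the library labelled IRF.fl_Fast_523, and 6.52, all below the 3 fasted LIRFKO livers. The Pdk4 change was 0.72 ± 0.37, with a 95% interval of -0.04 to 1.48 (adjusted p = 1, limma), and 0.81 (adjusted p = 1) without IRF.fl_Fast_523. Refed IR/FoxO1 floxed livers read 7.97, 6.42 and 6.71 and enclosed the refed LIRFKO values, with a change of -0.09 ± 0.34 (interval -0.78 to 0.61). The difference between the effect of LIRFKO on its controls and that of LIRKO on its own was tested directly. For fasted Pdk4 it was -3.06 ± 0.47 (adjusted p = 0.000634), where 0.934% of all genes passed, and -2.97 (adjusted p = 0.00251) without IRF.fl_Fast_523. For refed Pdk4 it was -1.51 ± 0.44 and did not pass (adjusted p = 0.0902), although it passed without IR.fl_Refed_566 (-1.74, adjusted p = 0.0422).

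**Figure D2:**
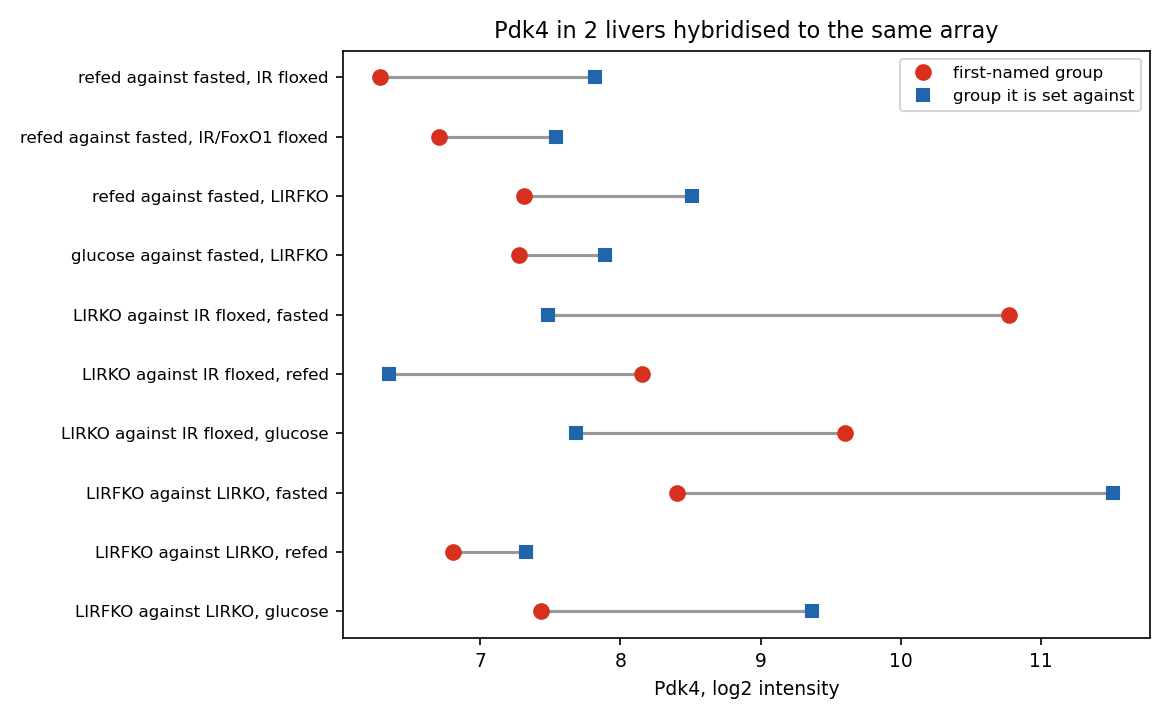
Pdk4 log2 intensity (x axis) in pairs of livers hybridised to the same array in different dyes (y axis, 1 array a row); circles mark the first-named group and squares the group it is set against. The LIRKO circles lie right of the IR floxed squares in all 3 states, and the LIRFKO circles lie left of the LIRKO squares.

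Pairs on the same array gave the same directions for Pdk4, with no test. LIRKO against IR floxed read 10.77 and 7.49 fasted, 8.15 and 6.35 refed, and 9.60 and 7.68 after glucose. LIRFKO against LIRKO read 8.40 and 11.51 fasted, 6.81 and 7.33 refed, and 7.43 and 9.37 after glucose. The smallest of these 6 gaps was that between refed LIRFKO and refed LIRKO.

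Refeeding lowered Pdk4 in both knockout lines. The LIRKO groups given above, 7.33 to 8.15 refed and 10.77 to 11.51 fasted, were far apart, with a change of -3.31 ± 0.35 (adjusted p = 2.07e-06) and within-slide values of -3.55 and -3.35. The LIRFKO groups, 6.43 to 7.32 refed and 7.89 to 8.52 fasted, were also apart, with a change of -1.36 ± 0.32 (adjusted p = 0.0277), and -1.20 on the slide that held both. Pdk4 was the 1 gene of the 8 called there, beside 1.81% of all genes. That LIRFKO call was lost with slide as a block (adjusted p = 0.0644), with only the 2 groups in the fit (0.0752), and without any 1 of the 3 fasted mice or of refed mice IRF.KO_Refed_468, IRF.KO_Refed_469 and IRF.KO_Refed_478 (0.0527 to 0.113). In IR floxed livers the refed values, 6.16 to 7.15, overlapped the fasted ones, 6.49 to 7.82, and the change of -0.96 ± 0.30 did not pass (adjusted p = 0.0819). Within slides it was -1.50 and -0.01. It passed without IR.fl_Fast_491 (-1.24, adjusted p = 0.0209). In IR/FoxO1 floxed livers the change was -0.55 ± 0.35 (adjusted p = 0.542), and -0.43 (adjusted p = 0.791) without IRF.fl_Fast_523.

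The drop of Pdk4 on refeeding was larger in LIRKO than in IR floxed livers by -2.35 ± 0.44 (adjusted p = 0.0221), in a test that 0.165% of all genes passed. The call was lost with only the 4 groups in the fit (adjusted p = 0.0714) or without 1 of IR.KO_Fast_505, IR.KO_Refed_558, IR.fl_Refed_506, IR.fl_Refed_562 and IR.fl_Fast_486 (0.055 to 0.068). The response of LIRFKO minus that of LIRKO was 1.95 ± 0.45 (adjusted p = 0.204), and that of LIRFKO minus IR/FoxO1 floxed was -0.81 ± 0.49 (adjusted p = 1), or -0.93 without IRF.fl_Fast_523. In these tests limma called 0.0222% and 0.00445% of all genes and none of the 8. At an unadjusted p under 0.05 there were 2 and 0 of the 8, beside 5.88% and 4.06% of all genes. After glucose the LIRKO livers lay below the fasted ones without overlap, but the change of -1.48 ± 0.37 did not pass (adjusted p = 0.0565). It passed with slide as a block (-1.54, adjusted p = 0.0478) and with only genes above the median level tested (-1.49, adjusted p = 0.0352). The glucose changes of Pdk4 were 0.27 ± 0.35 in IR floxed and -0.59 ± 0.34 in LIRFKO livers, neither called.

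**Figure D3:**
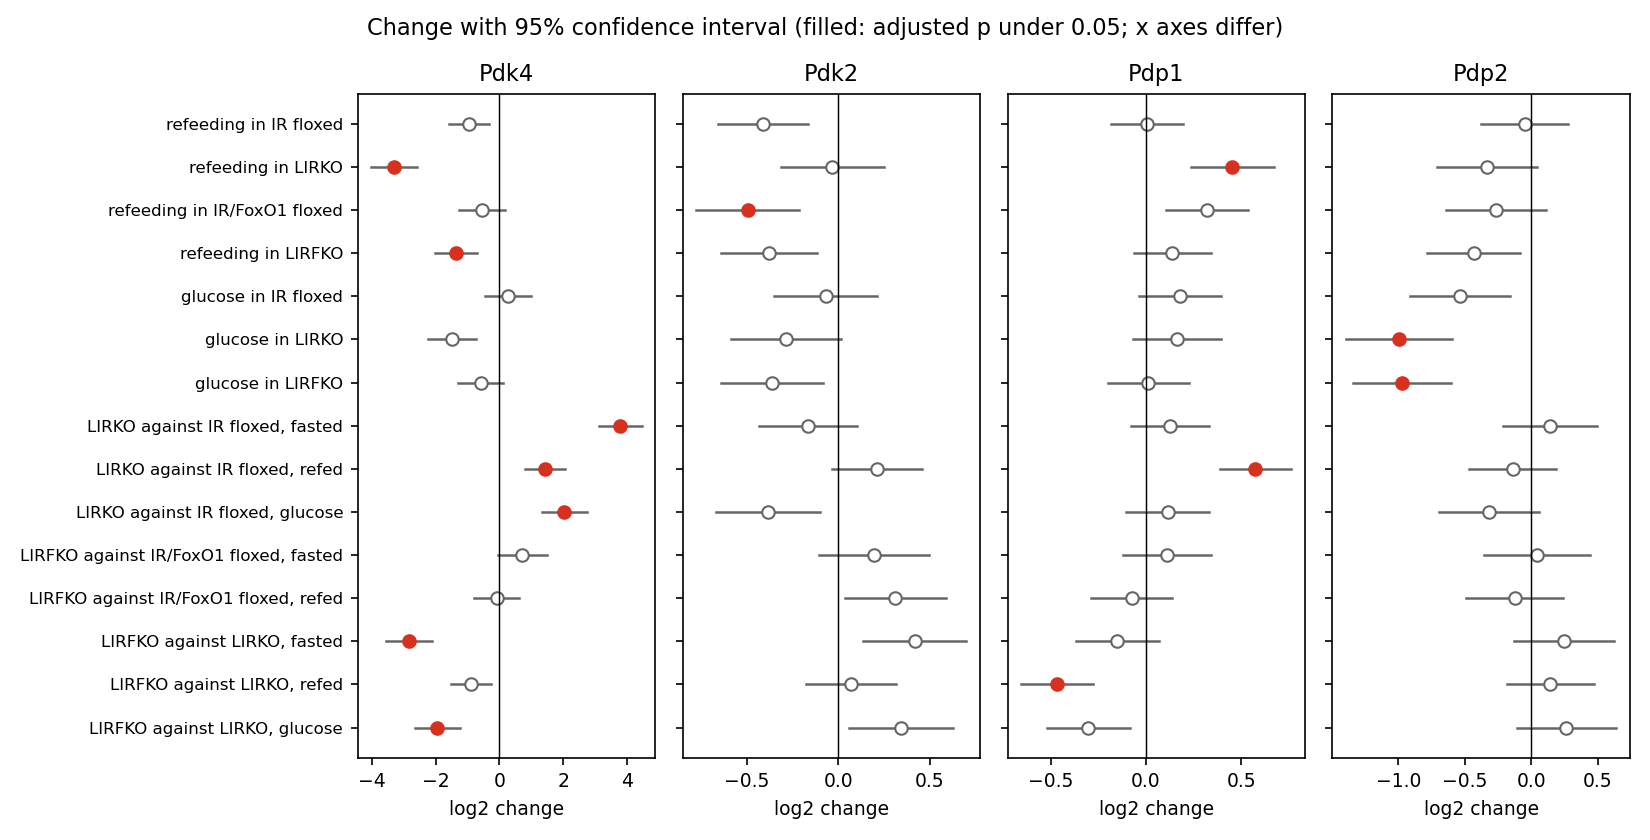
Fitted log2 change (x axis, scales differ) of Pdk4, Pdk2, Pdp1 and Pdp2 in 15 comparisons (y axis, first-named state or genotype over the other; refeeding and glucose are over fasted); lines are 95% confidence intervals and filled points passed at an adjusted p of 0.05. Pdk4 has 7 filled points, reaching 3.78 in fasted LIRKO livers, and no point of the other 3 genes lies beyond 1 in either direction.

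Pdk2, the most widely expressed of the kinases (chr11:95026258-95041371), passed in 1 of the 24 comparisons, as lower in refed than in fasted IR/FoxO1 floxed livers. In IR/FoxO1 floxed livers it read 9.86, 10.16 and 10.27 refed, against 10.56, 10.69 for the library labelled IRF.fl_Fast_523, and 10.602 fasted. The groups did not overlap, and the change of -0.49 ± 0.14 passed (adjusted p = 0.0409), as the 1 call of the 8 beside 3.54% of all genes. Leaving out any 1 of these 6 mice ended the call (0.0741 to 0.238), as did 5 of the 9 alternative settings. Without IRF.fl_Fast_523 the change was -0.43 (adjusted p = 0.207). IR floxed livers read 10.22, 10.15, 9.65 and 10.07 refed, against 10.46, 10.58, 10.33 and 10.66 fasted, again without overlap, but the change of -0.41 ± 0.12 did not pass (adjusted p = 0.0549). None of the 8 was called by limma there, where 3.61% of all genes were. At an unadjusted p under 0.05 there were 3 of the 8, beside 14.3% of all genes. In LIRFKO livers the refeeding change of Pdk2 was of like size, -0.38 ± 0.13, and did not pass (adjusted p = 0.139), with a LIRFKO minus IR/FoxO1 floxed response of 0.12 ± 0.19 (adjusted p = 1). In LIRKO livers it was -0.03 ± 0.14, and the LIRKO minus IR floxed response was 0.38 ± 0.17 (adjusted p = 0.58). Genotype changes of Pdk2 reached similar sizes without passing, 0.42 ± 0.14 in fasted LIRFKO against LIRKO livers (adjusted p = 0.0718) and -0.38 ± 0.14 in LIRKO against IR floxed livers after glucose (adjusted p = 0.0866). With the mean of both probes these passed (0.46, adjusted p = 0.0281, and -0.57, adjusted p = 0.00573).

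A second Pdk2 probe followed the first with r = 0.73 over the 37 livers, and passed in comparisons where the first did not. With each of 33026 probes tested on its own, a choice made after the data were seen, it was lower in LIRKO than in IR floxed livers after glucose (-0.75 ± 0.15, adjusted p = 0.00242), and higher in LIRKO than in IR floxed livers refed (0.41 ± 0.13, adjusted p = 0.0475), where the first probe gave 0.21 ± 0.12 (adjusted p = 0.327 in the test over genes). In LIRKO livers it was lower after glucose than fasted (-0.74 ± 0.16, adjusted p = 0.0302). It was higher in LIRFKO than in LIRKO livers, by 0.69 ± 0.15 after glucose (adjusted p = 0.00599) and by 0.51 ± 0.16 in fasted livers (adjusted p = 0.0469). The first probe gave 0.34 and 0.42 there, in the same direction and not called (adjusted p = 0.145 and 0.0718).

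Pdp2, a phosphatase of the E1 alpha subunit known in rat heart and kidney to fall in starvation (chr8:104591472-104599026), was lower after glucose in both knockout lines. LIRKO livers read 8.06, 8.57 and 8.39 after glucose, against 9.53, 9.33 and 8.86 fasted. LIRFKO livers read 8.55, 8.61 and 8.63 after glucose, against 9.31, 9.48 and 9.76 fasted. In both lines every glucose-treated liver was below every fasted one. The changes were -0.997 ± 0.19 (adjusted p = 0.024) in LIRKO and -0.98 ± 0.18 (adjusted p = 0.00644) in LIRFKO. Pdp2 was the 1 gene of the 8 called in each, beside 0.596% of all genes in LIRKO and 0.654% in LIRFKO.

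In IR floxed livers Pdp2 read 8.80, 8.35 and 8.70 after glucose, against 8.97, 9.30, 9.20 and 9.27 fasted. These groups did not overlap either, but the change of -0.54 ± 0.18 did not pass (adjusted p = 0.337), in a comparison where limma called 0.16% of all genes and none of the 8, with 3 of them at an unadjusted p under 0.05. That unadjusted level was reached by 8.5% of all genes. The glucose response was not shown to differ between LIRKO and IR floxed (-0.46 ± 0.25, interval -0.98 to 0.05, adjusted p = 0.778; limma called 0 of all genes, with 1542 at an unadjusted p under 0.05) or between LIRFKO and LIRKO (0.02 ± 0.25, interval -0.49 to 0.53; 0.0578% of genes passed). Within slides the glucose change of Pdp2 was -0.80 and -0.96 in LIRKO, -0.93 and -1.15 in LIRFKO, and -0.60 and -0.17 in IR floxed livers. Its refeeding changes were smaller, from -0.05 ± 0.16 in IR floxed to -0.44 ± 0.17 in LIRFKO livers, and none was called.

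The LIRKO call of Pdp2 was lost without IR.KO_Fast_505 (adjusted p = 0.103), without IR.KO_GTT_690 (0.102), without the array block (0.0517) and with only the 2 groups in the fit (0.603), and the LIRFKO call without IRF.KO_Fast_525 (0.168), without IRF.KO_GTT_726 (0.0558) and with only its groups (0.143). The second Pdp2 probe, whose mean of 5.63 was near the floor of the arrays, gave -0.21 ± 0.09 (adjusted p = 0.33) and -0.04 ± 0.08 (adjusted p = 0.909).

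Pdp1, the calcium-stimulated phosphatase (chr4:11958183-11966450), was highest in refed LIRKO livers. They read 6.46, 6.40, 6.23 and 6.77, against 5.77, 5.83, 6.01 and 6.00 in refed IR floxed livers. The groups were apart, with a change of 0.57 ± 0.09 or 1.49-fold (adjusted p = 7.3e-05), and 0.57, 0.24 and 0.93 within slides. Refed LIRFKO livers read 6.00, 6.07, 6.14 and 5.90, below all refed LIRKO livers, with a change of -0.47 ± 0.09 or 1.38-fold lower (adjusted p = 0.00143), and -0.57, -0.73 and -0.25 within slides. Pdp1 was the 1 of the 8 called in that comparison, beside 8.09% of all genes. Against fasted LIRKO livers, which read 6.08, 5.75 and 6.15, the refed LIRKO values were higher by 0.45 ± 0.11 (adjusted p = 0.02), or 1.02 and 0.31 within slides, the second call of the 8 there after Pdk4, beside 1.85% of all genes. That last call was lost without IR.KO_Fast_545 (0.154) or IR.KO_Refed_565 (0.0894) and with only the 2 groups in the fit (0.261). In IR floxed and LIRFKO livers Pdp1 changed on refeeding by 0.01 ± 0.09 and 0.14 ± 0.10, neither called. In IR/FoxO1 floxed livers the change was 0.32 ± 0.11, without overlap (adjusted p = 0.0988). Without IRF.fl_Fast_523 it was 0.44 and passed (adjusted p = 0.0487). The LIRKO minus IR floxed response of 0.45 ± 0.13 did not pass (adjusted p = 0.218).

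The LIRFKO effect on refed Pdp1 was lower than the LIRKO effect by -0.65 ± 0.14 (adjusted p = 0.00988), in a test that 1.32% of all genes passed, and the call was lost without IRF.fl_Refed_467 (-0.57, adjusted p = 0.0891). All 3 Pdp1 probes had low means, from 5.71 to 6.01, and the other 2 changed less: 0.25 ± 0.10 (adjusted p = 0.104) and 0.23 ± 0.06 (adjusted p = 0.0154) for LIRKO against IR floxed refed, and -0.12 ± 0.10 (0.562) and -0.18 ± 0.06 (0.0716) for LIRFKO against LIRKO refed. Averaging the 3 probes gave 0.35 and -0.26 for these comparisons, and both stayed called. For the difference between the effects the other 2 probes gave -0.27 ± 0.14 (adjusted p = 0.466) and -0.30 ± 0.09 (0.117). For refeeding in LIRKO livers they gave 0.25 ± 0.11 (0.317) and 0.16 ± 0.07 (0.349). Macrophage markers moved with refed Pdp1: 5 of the 6 (Adgre1, Clec4f, Cd5l, Vsig4 and Marco) were higher in refed LIRKO than in refed IR floxed livers, with a median change of 1.47, and 4 of the 6 were lower in LIRFKO than in LIRKO, with a median of -0.88. The shares of all genes called in these comparisons, in either direction, were 11.6% and 8.09%. The mean of the 6 ran from 9.72 to 9.99 in refed LIRKO livers, from 8.80 to 9.39 in refed LIRFKO livers and from 8.32 to 8.64 in refed IR floxed livers. The hepatocyte marker mean given above was lower in refed LIRKO than in refed IR floxed livers. The part of these markers in the Pdp1 result was not tested. In whole liver a change in the number of cells of a type and in RNA per cell cannot be told apart.

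Pdk1, Pdk3, Pdha1 and Pdhb were called by limma in none of the 24 comparisons, and 13 of these 96 tests, 7 of them of Pdhb, had an unadjusted p under 0.05. That is 13.5% of the tests, beside 12.2% over all genes in the same comparisons. Pdk1 (chr2:71873215-71903858), a kinase known as a target of hypoxia-inducible factor, varied mostly within groups, with 33.9% of its variance between them. It read 6.69, 7.84 and 7.87 in fasted LIRKO livers, against 7.78, 8.65, 8.16 and 8.32 in fasted IR floxed livers. The groups overlapped slightly, and the change of -0.86 ± 0.31 did not pass (adjusted p = 0.0849). With slide as a block it passed (-0.99, adjusted p = 0.0332). Pdk3 (chrX:93764616-93832150), known chiefly from testis, brain and kidney, stayed between 5.36 and 6.10 in all livers, near the lowest value of any probe, 5.07, and its largest change was 0.27 ± 0.09 after glucose in IR floxed livers (adjusted p = 0.323). In that glucose group IR.fl_GTT_659 read 6.10, against 5.48 in IR.fl_GTT_699 and 5.52 in IR.fl_GTT_691.

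Pdha1 (chrX:160122219-160138430) read 9.54, 8.24 and 9.30 after glucose in LIRKO livers, against 9.79, 9.58 and 9.71 fasted, with a change of -0.74 ± 0.22 (adjusted p = 0.123). The low value of 8.24 was that of IR.KO_GTT_690. Within slides the change was -1.54 on the slide that held this liver and -0.165 on the other slide with both groups. Without IR.KO_GTT_667, which read 9.54, the fitted change passed (-1.04, adjusted p = 0.0237). In LIRFKO livers the glucose change was -0.54 ± 0.21 (adjusted p = 0.262). Pdhb (chr14:8165991-8173303), by the probe used, had its 4 highest group means in the 4 refed groups, from 11.69 ± 0.17 in IR/FoxO1 floxed to 12.03 ± 0.26 in LIRFKO livers. Fasted LIRKO livers came next at 11.67 ± 0.14 and overlapped the refed IR/FoxO1 floxed livers. Its refeeding changes, of which the largest was 0.33 ± 0.12 in LIRFKO livers (adjusted p = 0.161), did not pass. Another Pdhb probe did not follow the one used (r = -0.21) and was lower in LIRFKO than in LIRKO livers after glucose (-0.89 ± 0.21, adjusted p = 0.00795), where the one used was higher by 0.31 ± 0.12 (adjusted p = 0.141).

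**Figure D4:**
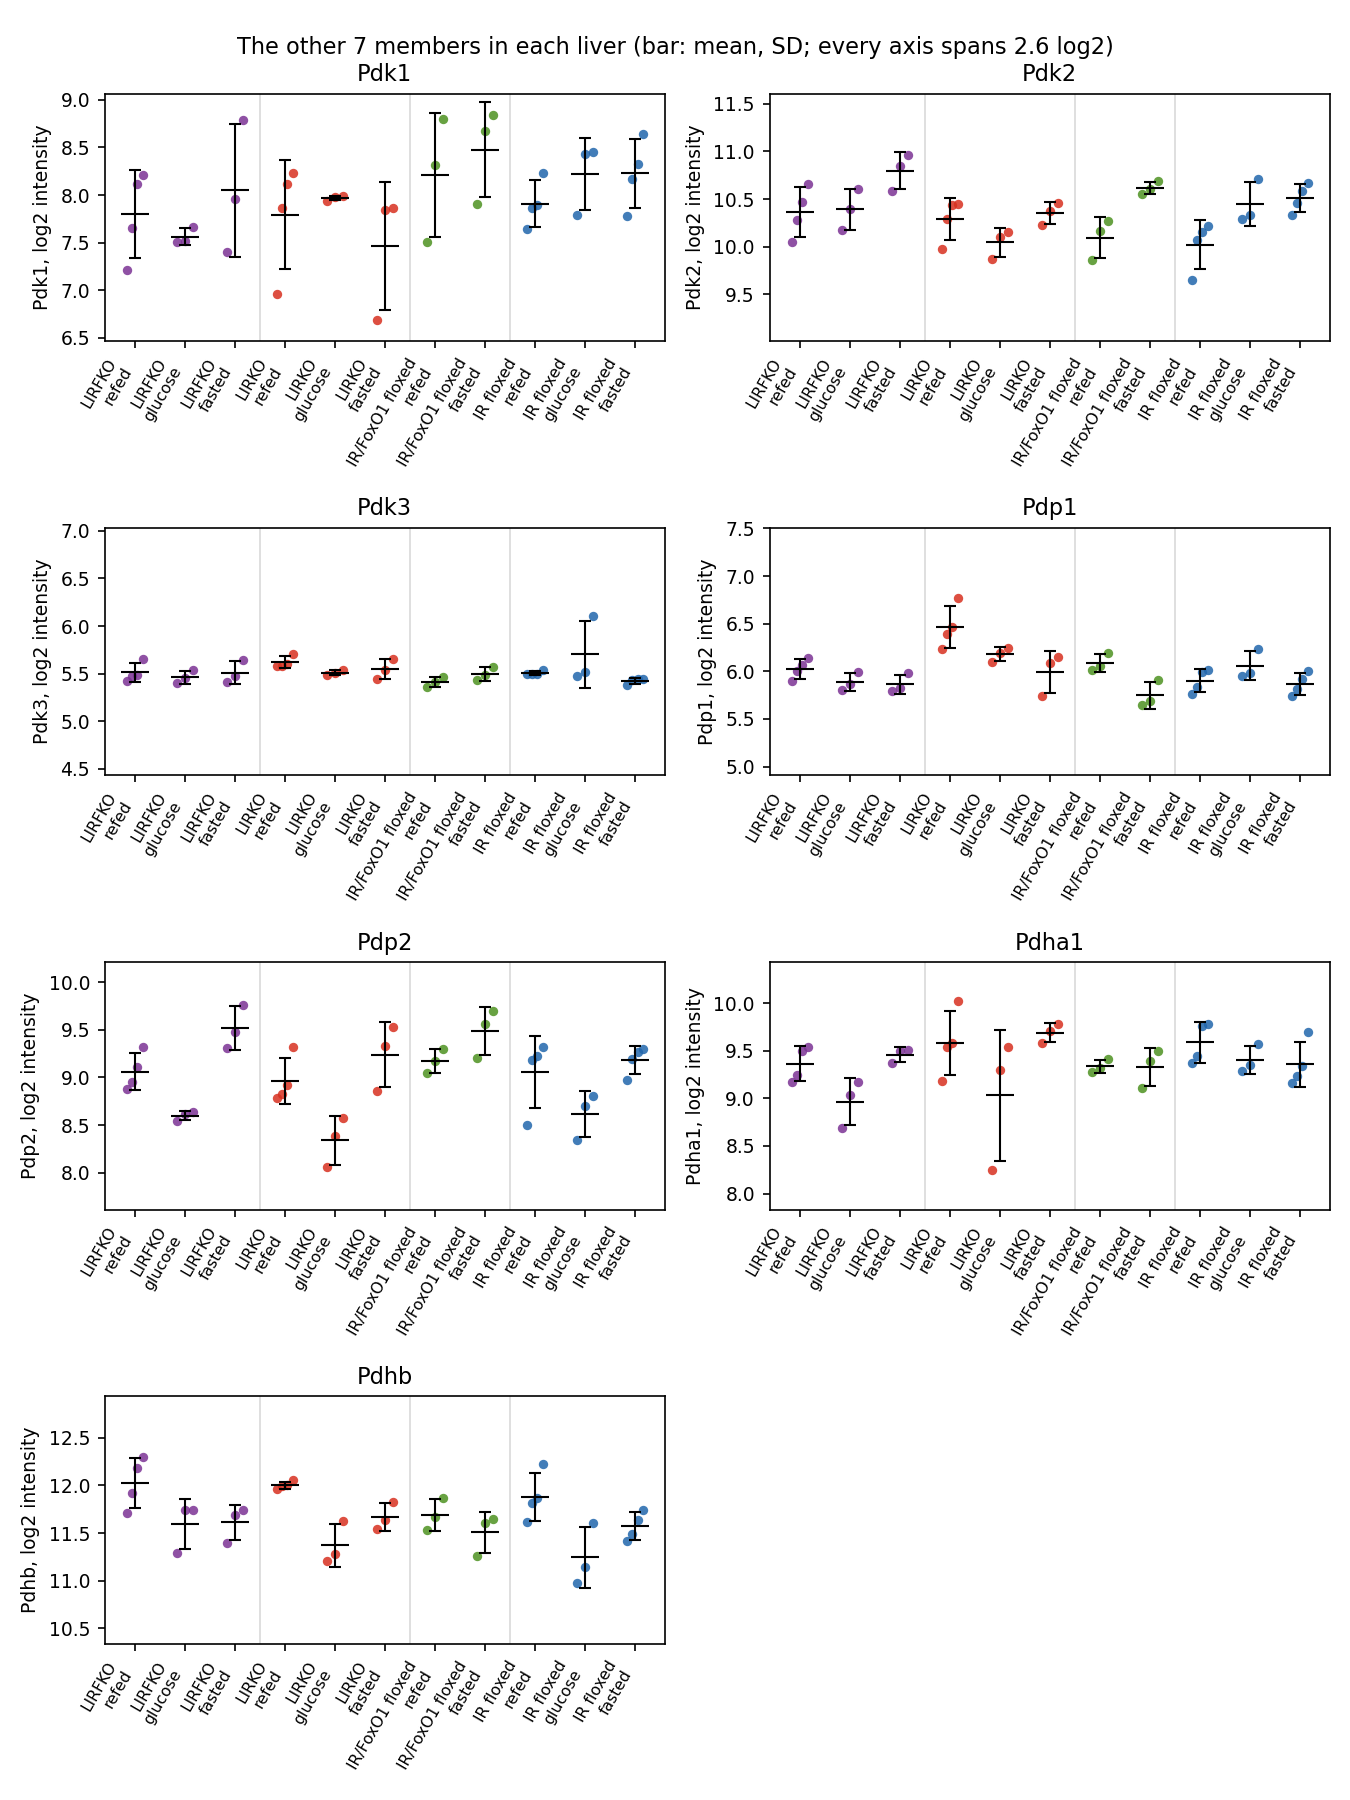
Log2 intensity (y axis, each spanning the same 2.6 units) of the other 7 genes in every liver, by genotype and feeding state (x axis); points are mice and bars give the mean and SD. Pdp2 is lower in all 3 glucose groups, and Pdp1 is highest in refed LIRKO livers. Pdk3 is flat near the floor except in 1 glucose-treated IR floxed liver, at 6.10.

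Between the 2 floxed lines limma called none of the 8 genes, and 0.0356% of all genes in fasted and 0.0845% in refed livers. At an unadjusted p under 0.05 there were 0 of the 8 in either state, beside 7.48% of all genes fasted and 6.11% refed. Pdk4 was 0.22 ± 0.33 higher in the IR/FoxO1 floxed line fasted and 0.63 ± 0.32 refed, with 95% intervals of -0.45 to 0.89 and -0.04 to 1.29. Without IRF.fl_Fast_523 the fasted difference was 0.13.

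The rest of the complex changed in few places. Of its 5 other genes, Pdpr, the regulatory subunit of the phosphatase, was lower in refed than in fasted livers of LIRKO (-0.49 ± 0.13, adjusted p = 0.0424) and LIRFKO (-0.58 ± 0.12, adjusted p = 0.0135). In IR/FoxO1 floxed livers without IRF.fl_Fast_523 the refeeding change was -0.42 ± 0.16 and did not pass (adjusted p = 0.184). The LIRFKO minus IR/FoxO1 floxed response was then -0.15 ± 0.20. Pdpr was also lower in LIRKO than in IR floxed livers refed (-0.41 ± 0.11, adjusted p = 0.0135), the state in which Pdp1 was higher, and in LIRFKO than in LIRKO livers after glucose (-0.44 ± 0.13, adjusted p = 0.0355). Pdhx, which anchors the E3 component, was lower in fasted LIRKO than in fasted IR floxed livers (-0.49 ± 0.15, adjusted p = 0.0347). Dlat, Dld and the testis form Pdha2 were not called by limma in any comparison, nor were the 4 measured genes of lipoate attachment.

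Several genes for other fates of pyruvate differed in LIRKO livers. Of 11 measured, 1 was higher and 3 lower in LIRKO than in IR floxed livers fasted, 4 and 2 refed, and 1 and 3 after glucose, where 8.06%, 11.6% and 8.3% of all genes were called, with medians of -0.07, 0.00 and -0.14 beside 0.003, -0.003 and -0.003 over all genes. Pcx, pyruvate carboxylase, which feeds pyruvate into gluconeogenesis, was lower in all 3 states (-0.65 ± 0.15 fasted, -0.48 ± 0.13 refed and -0.64 ± 0.15 after glucose). Ldhd, the D-lactate dehydrogenase, was lower by -1.61 ± 0.21, -1.57 ± 0.20 and -1.15 ± 0.23 in the same order, and Ldhb, a lactate dehydrogenase subunit, was higher by 1.05 ± 0.22, 1.45 ± 0.20 and 1.05 ± 0.23. Mpc1, part of the mitochondrial pyruvate carrier, was higher only in the refed comparison (0.49 ± 0.15, adjusted p = 0.0266), and the states were not tested against each other. In LIRFKO against LIRKO, Ldhd was higher in all 3 states (1.71 ± 0.23, 1.44 ± 0.20 and 1.36 ± 0.23). Pcx was higher in fasted livers (0.56 ± 0.15, adjusted p = 0.0256).

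Of 12 measured transcription regulators known for Pdk4, limma called none in LIRKO against IR floxed fasted livers. At an unadjusted p under 0.05 there were 4, beside 20% of all genes. Refed, Ppargc1a, a coactivator of FoxO1 and PPARalpha, was higher in LIRKO (1.68 ± 0.38, adjusted p = 0.00296), as was Pparg (0.96 ± 0.31, adjusted p = 0.0439), and Nr3c1, the glucocorticoid receptor gene, was lower (-0.56 ± 0.13, adjusted p = 0.00353). Of 14 measured PPARalpha and fasting targets, 5 were higher in LIRKO than in IR floxed livers fasted, 9 refed and 1 after glucose, with medians of 0.52, 1.17 and 0.00. Beside the same 8.06%, 11.6% and 8.3% of all genes, the glucose count was near the share over all genes. No others had an unadjusted p under 0.05 in fasted and refed livers, and 2 others did after glucose. Such a p was found for 20% of all genes fasted, 21.9% refed and 20.3% after glucose. Plin2, which coats lipid droplets, was higher by 1.74 ± 0.32 fasted, and Acot2, a mitochondrial thioesterase, by 2.70 ± 0.36. In fasted LIRFKO against LIRKO livers 3 of the 14 were lower, Acot2 (-1.41 ± 0.39), Vnn1 and Plin2 (-1.65 ± 0.34), and Acadm was higher. In that comparison 6.52% of all genes were called in either direction.

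Of 13 measured FoxO1 targets, 2 were higher and 2 lower fasted, 5 and 2 refed, and 3 and 3 after glucose in LIRKO against IR floxed livers, against those same shares of all genes, with medians of -0.04, 0.40 and 0.13, and the lower ones include the deleted Insr. Among them Igfbp1, the insulin-suppressed IGF binding protein, was higher by 5.88 ± 0.68 refed (adjusted p = 8.37e-07) and by 2.53 ± 0.74 fasted (adjusted p = 0.0319). On refeeding 6 of the 13 fell in IR floxed livers and 5 in IR/FoxO1 floxed livers, where 3.61% and 3.54% of all genes were called, and 4 without IRF.fl_Fast_523, with 2.05% of all genes. In LIRKO livers Sesn3 rose and was the 1 gene of the 13 with an unadjusted p under 0.05. In LIRFKO livers limma called none of the 13, with 7 at an unadjusted p under 0.05. Such a p on refeeding was found for 12.2% of all genes in LIRKO and 13.6% in LIRFKO livers. Igfbp1 changed by -0.25 ± 0.78 on refeeding in LIRKO livers (adjusted p = 0.961) and by -3.61 ± 0.69 in IR floxed livers (adjusted p = 0.00295), a difference of 3.35 ± 0.99 that did not pass (adjusted p = 0.213). Irs2, an insulin receptor substrate, was higher in LIRKO than in IR floxed livers by 1.05 ± 0.29 fasted, 1.99 ± 0.26 refed and 2.62 ± 0.30 after glucose, and lower in LIRFKO than in LIRKO livers in the same states (-1.002 ± 0.30, -1.38 ± 0.26 and -1.90 ± 0.30).

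The genes whose 11 group means followed Pdk4 most closely, among 2692 with a mean above the median and a span of at least 1 log2 unit, were Gm12551 (r = 0.93), Hilpda (0.92), Plin2 (0.92), Nr4a1 (0.91) and Klf6 (0.91). Hilpda and Plin2 encode lipid droplet proteins, Nr4a1 an orphan nuclear receptor and Klf6 a zinc finger factor. Over the 37 livers these correlations were 0.88, 0.84, 0.85, 0.83 and 0.79. For Pdp2 the closest were Igfbp4 and Zfp467 (0.93 each), Alas1 (0.90), Dclre1a (0.90) and G0s2 (0.89), with 0.68, 0.70, 0.65, 0.64 and 0.73 over the livers. All share the same arrays and groups, and the values describe likeness only.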

How the data were processed

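Per the labels' protocols, total RNA from each liver was labelled with Cy3 or Cy5 for Agilent arrays. The deposited log2 intensities, 1 per sample, had been normalized by the authors, and how is not given in the sources used here. R 3.1.0 and limma 3.20.1 are listed per the submitters' processing notes. The 45220 probes were named through the platform annotation (33026 with 1 gene, 12194 with none, none with several), giving 22485 genes, each read from its highest-mean probe. No detection calls were used.

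In limma 3.58.1 (R 4.3.3, statmod 1.5.0) 11 group means and a dye effect were fitted to 37 samples, with the array (20 in all, 17 of them holding 2 samples) treated as a block through duplicateCorrelation, estimated at 0.358. The 24 contrasts were adjusted by Benjamini-Hochberg over all genes of each contrast, and calls are adjusted p under 0.05. The fit was tested on simulated data. Each liver is 1 mouse, and no technical repeat was averaged. Errors on changes are SE and intervals 95%. Alternatives were other probe summaries, normalizations, blocks, dye, moderation, a level filter, only the groups compared, and each mouse left out; slide (5 slides) was tested as a block and within slides. IRF.KO_GTT_724 was left out because its labels disagree.

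The genes and gene lists were chosen with earlier results of these data known. Named genes were the 8, up to 4 genes of smallest p from each pathway list, markers of other liver cell types, and the 5 genes most correlated with Pdk4 and with Pdp2, the next widest in range. Start sequences are from RefSeq (GRCm38.p6).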

Additional observations from a re-analysis of the deposited data

Results flagged for a closer look

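Of 32 checks of a gene in groups of 4 mice, 3 had a mouse far from the others of its group, and chance gives about 1 in 20. Pdk3 was 5.71 in IR.KO_Refed_565, against 5.58 to 5.603 in the other refed LIRKO mice. Pdk3 was 5.54 in IR.fl_Refed_566, against 5.496 to 5.499 in the others of that group. In the same IR.fl_Refed_566 Pdp2 was 8.50, against 9.18 to 9.32.

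In 3 cases an effect differed between lines by a test of the difference. The refeeding change of Pdk4 in LIRKO minus that in IR floxed livers was -2.35 (adjusted p = 0.0221). The effect of LIRFKO on fasted Pdk4 lay -3.06 below that of LIRKO, each against its own floxed line (adjusted p = 0.000634). The same difference for refed Pdp1 was -0.65 (adjusted p = 0.00988). The other 2 Pdp1 probes gave -0.27 and -0.30, neither called.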

How the results depend on the processing

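Of 192 gene results, 3536 alternative values were computed: 3273 kept direction and side of the threshold, 37 lost a call, 16 gained one, 210 changed sign between uncalled values, and no called value reversed. Most of the 192 were not called to begin with, and only a called result can lose a call. The 37 are therefore a larger share of the alternatives of called results than of all 3536. Counts of called genes among the 8 moved as follows. With only the groups compared in the fit, which leaves few residual degrees of freedom, they were 1 for refeeding in LIRKO and 0 for refeeding in IR/FoxO1 floxed and in LIRFKO, glucose in LIRKO and in LIRFKO, LIRKO against IR floxed after glucose, and the LIRKO minus IR floxed refeeding response. Refeeding in IR/FoxO1 floxed also gave 0 without the array block, with slide as a block, without dye, and with trended robust moderation; refeeding in LIRFKO gave 0 with slide as a block, and glucose in LIRKO gave 0 without the array block. The counts rose to 2 with slide as a block (glucose in LIRKO; LIRKO against IR floxed and LIRFKO against LIRKO, fasted), with the mean of all probes (LIRKO against IR floxed and LIRFKO against LIRKO after glucose; LIRFKO against LIRKO fasted), and with only genes above the median level (glucose in LIRKO; LIRFKO against LIRKO refed), and to 1 with that filter for refeeding in IR floxed. Leaving out each mouse gave 0 to 1 for refeeding in IR floxed, IR/FoxO1 floxed and LIRFKO, for glucose in LIRFKO and for the LIRKO minus IR floxed refeeding response, 1 to 2 for refeeding in LIRKO and for LIRFKO against LIRKO fasted, and 0 to 2 for glucose in LIRKO and for the refed difference between the LIRFKO and LIRKO effects. The cause was not tested. Without IRF.fl_Fast_523, refed Pdp1 in IR/FoxO1 floxed gained a call (0.44, adjusted p = 0.0487) as Pdk2 lost it. Counts over all genes also moved, with the lowest and highest over all settings and mice left out in parentheses. They were 811 (138 to 944) for refeeding in IR floxed, 416 (170 to 485) for refeeding in LIRKO, 796 (331 to 900) for refeeding in IR/FoxO1 floxed, 407 (82 to 483) for refeeding in LIRFKO, 36 (0 to 384) for glucose in IR floxed and 134 (0 to 550) for glucose in LIRKO. The count was 147 (0 to 161) for glucose in LIRFKO, 1813 (2059 at most, and at least 2.48% of all genes) for LIRKO against IR floxed fasted, 2610 (1710 to 2961) for LIRKO against IR floxed refed, 1866 (5 to 2105) for LIRKO against IR floxed glucose, 1 (0 to 9) for LIRFKO against IR/FoxO1 floxed fasted and 85 (5 to 98) for LIRFKO against IR/FoxO1 floxed refed. There were 1466 (81 to 1648) for LIRFKO against LIRKO fasted, 1820 (1065 to 2253) for LIRFKO against LIRKO refed, 1703 (504 to 1933) for LIRFKO against LIRKO glucose, 8 (0 to 18) for IR/FoxO1 floxed against IR floxed fasted, 19 (0 to 31) for IR/FoxO1 floxed against IR floxed refed and 37 (3 to 60) for refeeding response LIRKO minus IR floxed. Counts were 1 (0 to 4) for refeeding response LIRFKO minus IR/FoxO1 floxed, 5 (2 to 12) for refeeding response LIRFKO minus LIRKO, 0 (0 to 48) for glucose response LIRKO minus IR floxed, 13 (0 to 107) for glucose response LIRFKO minus LIRKO, 210 (88 to 287) for LIRFKO minus LIRKO effect fasted and 297 (151 to 651) for LIRFKO minus LIRKO effect refed. No paired analysis by mouse number was possible because no number is shared between groups; livers that shared an array were fitted with the array as a block. Groups held 3 or 4 mice, and Pdk3, Pdp1 and the second Pdp2 probe were of low intensity.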

Other observations

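The sample IRF.KO_GTT_724 is glucose-treated by its title and fasted by its other labels, and entered no comparison. It read 7.62 for Pdk1, 10.67 for Pdk2, 5.77 for Pdk3 and 7.68 for Pdk4. It read 6.00 for Pdp1, 8.56 for Pdp2, 9.06 for Pdha1 and 11.75 for Pdhb, with Insr at 6.51 and Foxo1 at 6.80.

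Among the branched-chain counterparts of these enzymes, Bckdha and Dbt, subunits of the branched-chain ketoacid dehydrogenase complex, were higher in LIRFKO than in LIRKO livers, by 0.71 ± 0.16 (adjusted p = 0.0061) and 0.98 ± 0.27 (adjusted p = 0.0229) fasted and by 0.45 ± 0.14 (adjusted p = 0.0396) and 0.83 ± 0.23 (adjusted p = 0.0234) refed. Ppm1k, the phosphatase of that complex, was lower in refed than in fasted IR/FoxO1 floxed livers (-1.45 ± 0.36, adjusted p = 0.0199), and not called without IRF.fl_Fast_523 (-1.36 ± 0.43, adjusted p = 0.106).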
